A study of Homo sapiens with 4 samples.

Results

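Keratins and vimentin form the intermediate filaments of epithelial and mesenchymal cells, and 10 of their genes were followed in LoVo cells, a line from a human colon adenocarcinoma, with and without MET. The members were listed by name, as 9 keratin genes (KRT7, KRT8, KRT15, KRT17, KRT18, KRT19, KRT20, KRT23 and KRT80) and VIM, matched by their GENCODE version 29 names without pseudogenes, and they are 10 of the 58825 gene rows of each file. The MET+ group consisted of 2 libraries of LoVo cells labelled WT, with GFPCTR in their sample descriptions, in which the MET receptor is uncleaved and constitutively active. The MET-KO group consisted of 2 libraries of LoVo cells in which MET was knocked out with CRISPR-Cas9 and puromycin selection, and the study grew MET-KO cells from hand-picked single clones. Whether both MET-KO libraries came from 1 clone is not given in the sources used here, so an effect of the clone and an effect of MET cannot be told apart. All cells were grown in DMEM with serum and without further treatment, and the question was which genes differ when the active receptor is lost.

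Keratin filaments are obligate pairs of an acidic type I chain and a basic type II chain, so a cell needs messages of both types. KRT8 (type II) with KRT18, KRT19 and KRT20 (type I) is the set known from simple epithelia such as the gut lining, and KRT7, KRT17, KRT23 and KRT80 are known from other epithelia and from carcinomas. VIM encodes a type III filament protein, builds filaments without a partner chain and is a common marker of mesenchymal cells. The type II genes and KRT18 lie together on chromosome 12, the other type I genes on chromosome 17 and VIM on chromosome 10.

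Depth and identity of the libraries set the frame for the values. The libraries held 8429142 and 10286552 counts (MET+) and 10137583 and 10228991 counts (MET-KO), and the limit that a count of 0 allows, 3 counts, stood between 0.276 and 0.362 CPM in a library (CPM are counts brought to a common library total, with TMM scaling in edgeR). MET itself was counted 2794 and 3272 times in MET+ libraries and 861 and 965 times in MET-KO libraries, which left 25.7% of the MET+ level. Among 13 markers of colon epithelium, 11 were tested, of which 9 were called lower, against 26.9% of all tested genes, and 1 (CDX2) higher, while CDX1 and TFF3 had 0 counts throughout. CEACAM5, CDH17, GPA33 and PHGR1, all detected in MET+ cells, had 0 counts in both MET-KO libraries, although the labels give the same line and tissue for both groups. These 4 and LGALS4, VIL1 and MUC2, at 1 to 7 counts in a MET-KO library, entered the test only through their MET+ libraries and had to be lower. In bulk RNA, fewer cells with a message and less of it per cell cannot be told apart. The summed level of the 8 fibroblast markers was 1.64 to 2.17 CPM in MET+ and 3.82 to 4.32 CPM in MET-KO libraries, with COL1A2 and DCN at 0 counts in all 4 and COL3A1 called higher, from 4 and 5 to 24 and 26 counts. Of 6 endothelial and 7 leukocyte markers, none had a summed list level above 3.03 CPM in any library. PTPRC and CDH5 were at 0 in all 4, while LST1 was called higher, from 3 and 2 to 10 and 18 counts. COL3A1 and LST1 entered the test only through their MET-KO libraries and had to be higher.

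Promoter sequences are shown for the genes with the clearest difference between the groups, as far as the reference table held them. Of the 10 members, VIM, KRT8 and KRT20 had an entry in that table, which was taken from RefSeq on GRCh38.p14 with the gene starts given there. Below are the 250 bases before the start of VIM (chr10:17227991-17228240, plus strand), the member that fell most, and of KRT20 (chr17:40885243-40885492, minus strand), which was read only in MET-KO cells. KRT31 (chr17:41397609-41397858, minus strand) and KRT34 (chr17:41382307-41382556, minus strand) are added as the hair keratins with the highest level in MET-KO cells. Capitals mark a match to TTTATGG, a motif of the intestinal factor CDX2.
VIM: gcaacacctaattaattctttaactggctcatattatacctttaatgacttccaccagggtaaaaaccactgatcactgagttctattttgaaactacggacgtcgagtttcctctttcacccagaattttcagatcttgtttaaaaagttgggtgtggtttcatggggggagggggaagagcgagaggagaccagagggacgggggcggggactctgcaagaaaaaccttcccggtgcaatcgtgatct
KRT20: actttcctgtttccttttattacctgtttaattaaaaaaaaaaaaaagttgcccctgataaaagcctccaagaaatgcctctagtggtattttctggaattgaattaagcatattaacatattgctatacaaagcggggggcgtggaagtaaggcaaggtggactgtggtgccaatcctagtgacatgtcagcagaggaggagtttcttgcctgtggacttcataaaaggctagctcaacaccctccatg
KRT31: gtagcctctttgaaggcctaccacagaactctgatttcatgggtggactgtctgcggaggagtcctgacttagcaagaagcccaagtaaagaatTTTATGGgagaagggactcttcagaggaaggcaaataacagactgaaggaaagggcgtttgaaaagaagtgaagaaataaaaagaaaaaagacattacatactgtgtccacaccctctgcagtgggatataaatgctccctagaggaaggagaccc
KRT34: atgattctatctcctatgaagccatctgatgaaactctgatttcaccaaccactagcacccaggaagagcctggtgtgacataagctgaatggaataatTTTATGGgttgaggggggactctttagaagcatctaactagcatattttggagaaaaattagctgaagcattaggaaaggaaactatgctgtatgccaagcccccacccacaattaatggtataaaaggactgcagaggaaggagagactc
The match lay 156 bases before the start of KRT31 and 151 bases before that of KRT34. Each window of 300 bases (250 before and 50 after the start) was searched on both strands for TTTATGG, for CATTCC, the motif of the TEAD factors that work with YAP1, and for TGANTCA, the AP-1 motif. These letters occurred in 2.54%, 14.0% and 7.71% of all 35116 promoters in the table. Among the 35 keratin and vimentin genes with an entry, 5 held TTTATGG, 6 held CATTCC and 0 held TGANTCA. Besides KRT31 and KRT34, TTTATGG was held by KRT84 (0 counts throughout), KRT85 (0 to 7 counts in a library) and KRT9. KRT9 had 9 and 8 counts with MET, and 8 and 6 without it. The windows of KRT36, KRT37 and KRT38, also called higher in MET-KO cells, did not hold TTTATGG. KRT8 had CATTCC 17 bases after its start and KRT38 162 bases before it, while the windows of VIM and KRT20 held none of the 3 motifs. The 250 bases before that KRT8 start (chr12:52926470-52926719, minus strand) lay inside the annotated span of KRT8 (52897187 to 52949954). The bases before the KRT36 start (chr17:41489911-41490160, minus strand) likewise lay inside the annotated span of KRT36 (41486136 to 41492546). Those shown for KRT34 ran partly into the span of KRT34, which ends at 41382403. Whether these starts are used in these cells was not tested. The level of CDX2 itself was 64.9 ± 2.17 CPM with MET and 133.8 ± 15.3 CPM without it (SD, n = 2 each). A match of letters is a description of the sequence and says nothing of binding.

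Most keratin message came from KRT18, KRT19 and KRT8 in both groups, while the members that differed by more than a small amount were low ones. After MET loss VIM fell from 18.0 ± 3.80 to 0.426 ± 0.048 CPM, and KRT80 rose from 8.40 ± 0.286 to 42.2 ± 2.21 CPM (SD, n = 2 each). KRT20 and KRT17 were at or near 0 in MET+ cells and above 2 CPM in MET-KO cells. KRT18 and KRT19 fell by 0.30 and 0.29 on the log2 scale, KRT7, KRT8 and KRT15 did not pass the test, and KRT23 had 0 counts in every library. Of the 10 members, 9 were expressed enough to be tested, and relative to MET+ cells 3 were called higher and 3 lower at an adjusted p of 0.05 over all 13801 tested genes. Among all tested genes 54.1% were called, 27.2% as higher and 26.9% as lower, so a call by itself does not set a member apart from other genes. KRT17 and KRT20 passed the filter on low counts only through their MET-KO libraries, and VIM only through its MET+ libraries, so these 3 had to differ and their adjusted p-values carry that limit. The median log2 fold change of the 9 tested members was -0.19, against 0.01 over all tested genes.

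**Figure D1:**
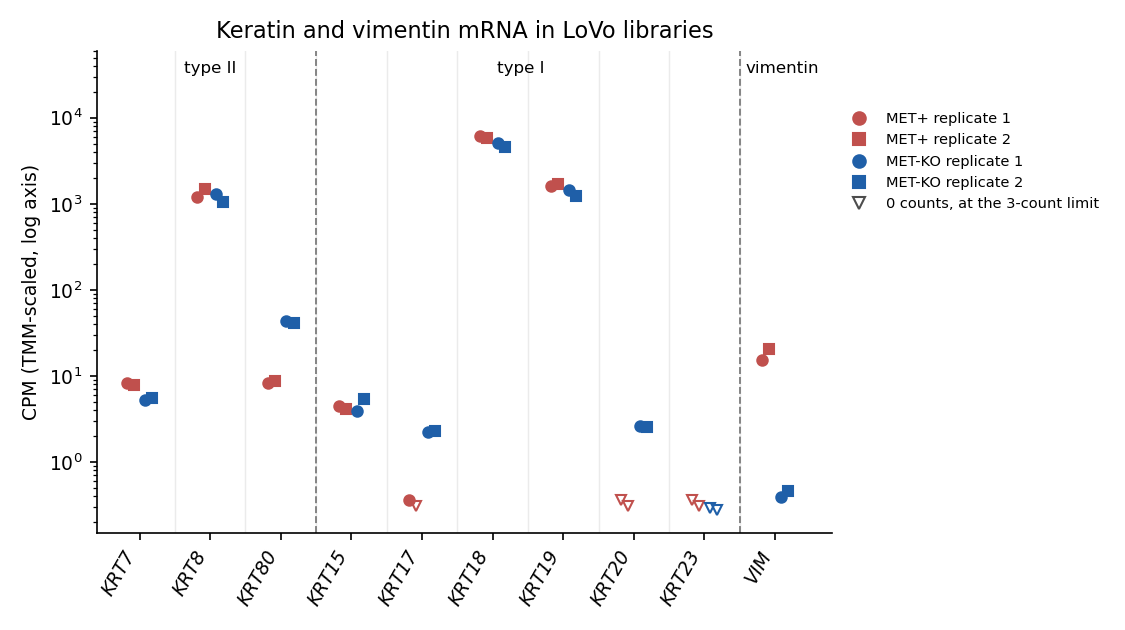
Level of the 9 keratins and of VIM in each library, in CPM scaled by TMM on a log axis, with 1 symbol per library (circles replicate 1, squares replicate 2) and open triangles for libraries with 0 counts, drawn at the 3-count limit. KRT18, KRT19 and KRT8 lie at 1049 CPM or above in all 4 libraries, VIM drops from 15.3 and 20.7 CPM to 0.392 and 0.460 CPM, and KRT80 climbs from near 8 to above 40 CPM.

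The main keratins of simple epithelium were taken first. KRT18 (ENSG00000111057, chromosome 12, 52948871 to 52952901), the type I partner of KRT8 in simple epithelia, was counted 51150 and 57085 times with MET, and 52290 and 50287 times without it. Scaled, these were 6170 and 5849 CPM against 5118 and 4623 CPM, and both MET-KO libraries lay below both MET+ libraries. Such a lack of overlap, in either direction, was found for 75.6% of all tested genes. This was a log2 fold change of -0.30 with a standard error (SE) of 0.10 and an adjusted p = 0.0129 in edgeR. Without MET+ replicate 1 or without MET+ replicate 2 it was -0.26 and -0.35, with adjusted p of 0.157 and 0.0828, and the call was lost both times.
KRT19 (ENSG00000171345, chromosome 17, 41523617 to 41528308), the smallest keratin and a second type I chain that pairs with KRT8, showed a similar small difference. Its level was 1601 and 1682 CPM with MET, and 1454 and 1240 CPM without it, again without overlap of the groups. Its log2 fold change of -0.29 (SE 0.10 and adjusted p = 0.0139) also lost the call without MET+ replicate 2 (-0.26, adjusted p = 0.153) and without MET-KO replicate 2 (-0.17, adjusted p = 0.108).
KRT8 (ENSG00000170421, chromosome 12, 52897187 to 52949954), the type II chain of these pairs, stood at 1203 and 1482 CPM with MET, and at 1313 and 1049 CPM without it. The groups overlapped, and the log2 fold change of -0.19 (SE 0.11 and adjusted p = 0.144) did not pass the test. Its MET+ replicates differed from each other by more than the group means did, and the value ranged from -0.36 without MET-KO replicate 1 (adjusted p = 0.000258) to -0.03 without MET-KO replicate 2. Without MET+ replicate 1 it was -0.33 (adjusted p = 0.0417).
The annotated spans of KRT8 and KRT18 overlap on opposite strands by 1084 bases, including exon sequence, and the strand setting of the counting is not given in the sources used here. Both genes also have many pseudogenes, 50 of KRT8 and 67 of KRT18 in the annotation. The counts assigned to them came to between 0.12% and 0.179% of the KRT8 count and between 0.616% and 0.671% of the KRT18 count in a library. Of the 451 windows of 50 bases in the last 500 bases of the longest KRT18 transcript, 9.09% recurred in another gene, while none did for KRT8, KRT20, KRT80 or VIM.

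The less abundant type II members moved apart. KRT80 (ENSG00000167767, chromosome 12, 52168996 to 52192000), a type II keratin found in many epithelia near junctions, was counted 68 and 84 times with MET, and 447 and 442 times without it. It was 5.02-fold higher in MET-KO cells, with a log2 fold change of 2.32 (SE 0.16 and adjusted p = 1.58e-14). Over the alternatives tried for it this value stayed between 2.27 and 2.42, and the groups were far apart.
KRT7 (ENSG00000135480, chromosome 12, 52232520 to 52252186), known from ductal and glandular epithelia and usually low in the colon, was counted 69 and 76 times in MET+ libraries, and 53 and 60 times in MET-KO libraries. Both MET-KO values, 5.19 and 5.52 CPM, lay below both MET+ values, 8.32 and 7.79 CPM. Its log2 fold change of -0.59 (SE 0.26 and adjusted p = 0.0526) did not pass the threshold, and thinning the libraries to equal depth placed it just past (adjusted p = 0.0496). The last 500 bases of KRT7 share 2.22% of their windows with PRPH, another intermediate filament gene. The annotated span of KRT7 overlaps KRT86 on the same strand, without shared exon sequence, and KRT86 had 6 to 18 counts in a library. KRT7-AS and KRT87P, which share exon sequence with KRT7, had 0 counts in every library.

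Among the type I members of low level, KRT20 and KRT17 were higher without MET and KRT15 did not pass the test. KRT20 (ENSG00000171431, chromosome 17, 40875941 to 40885227), a keratin of differentiated intestinal cells, was not counted in either MET+ library, while the MET-KO libraries held 27 and 28 counts. With the MET+ level set to the limit of 3 counts in each library, its MET-KO level was at least 7.79-fold higher (adjusted p = 7.77e-07).
KRT17 (ENSG00000128422, chromosome 17, 41619441 to 41624842), a keratin of basal and wounded epithelium, was counted 3 and 0 times with MET, and 23 and 25 times without it. The ratio of the summed, scaled counts was 13.7 with a 95% counting interval of 4.41 to 68.7, and the adjusted p was 8.83e-05. The fitted log2 fold change of 3.67 depended on the MET+ library kept, at 2.60 without MET+ replicate 2 and at 7.56 without MET+ replicate 1, where the remaining MET+ library had 0 counts and the value is no bound. KRT17 shares 4.21% of its end windows with KRT16 and with KRT17 pseudogenes. Its count is therefore uncertain, by an amount that was not tested.
KRT15 (ENSG00000171346, chromosome 17, 41513743 to 41522529), known from basal cells, was counted 37 and 40 times with MET, and 40 and 58 times without it. Its groups overlapped, and the log2 fold change of 0.12 (SE 0.31 and adjusted p = 0.778) changed sign to -0.12 without MET-KO replicate 2. KRT23 (ENSG00000108244, chromosome 17, 40922696 to 40937634) could not be compared, since 0 counts in each library allow no more than the 3-count limit given above.

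VIM (ENSG00000026025, chromosome 10, 17228259 to 17237593) showed the largest difference of the members with counts in every library. It was counted 127 and 202 times with MET, and 4 and 5 times without it, or 15.3 and 20.7 against 0.392 and 0.460 CPM. Its log2 fold change was -5.36 (SE 0.35 and adjusted p = 6.37e-15), in a test it entered through its MET+ libraries alone. The summed, scaled counts were 42.7-fold lower in MET-KO cells with a 95% counting interval of 22.2 to 94.3. Intervals of this kind cover counting error only, because they pool the 2 libraries of a group and leave out the spread between replicates. PCR copies were not separated, so even the counting error may be larger than they show. For every 1000 counts of KRT18, the main keratin, MET+ libraries held 2.48 and 3.54 counts of VIM and MET-KO libraries 0.076 and 0.099. The antisense gene VIM-AS1, which shares exon sequence with VIM, was counted 2 and 6 times with MET, and 11 and 5 times without it. Over the alternatives that tested VIM the log2 fold change lay between -5.56 and -5.07.

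In order of level among the 10 members, KRT18 was above KRT19 and KRT19 above KRT8 in all 4 libraries. In MET+ cells VIM followed, then KRT80 and KRT7, which did not differ from each other beyond their replicate spread (8.40 ± 0.286 and 8.06 ± 0.379 CPM, SD, n = 2), then KRT15. In MET-KO cells KRT80 came next of the members, followed by KRT7 and KRT15, with KRT15 replicates of 3.92 and 5.33 CPM reaching into the range of KRT7, then KRT20 (2.57 and 2.64 CPM), KRT17 (2.25 and 2.30 CPM) and VIM. QuantSeq libraries are primed at the poly(A) tail, so that counts do not grow with transcript length. Sequence shared with other genes and the unknown counting settings may still shift a gene against another, which was not tested.

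Chromosome 12 as a whole was shifted between the groups, and that shift stands beside the keratins located there. Over its tested genes the median log2 fold change was -0.32, with 33.8% of them above 0, and the 180 tested genes within 5 Mb of KRT8 a median of -0.52. KRT8 and KRT18, at -0.19 and -0.30, were thus less negative than their neighbourhood, KRT7 at -0.59 was near the median within 5 Mb (-0.51) but below that of the 25 genes within 1 Mb (-0.28), and KRT80 at 2.32 lay far above it. On chromosome 17 the median was 0.05, and it was 0.16 for the 178 genes within 5 Mb of KRT19, so that KRT19 at -0.29 lay below its surroundings. Within 5 Mb of VIM, 36 tested genes had a median of 0.11. The part of these regional shifts in the members' values was not tested.

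**Figure D2:**
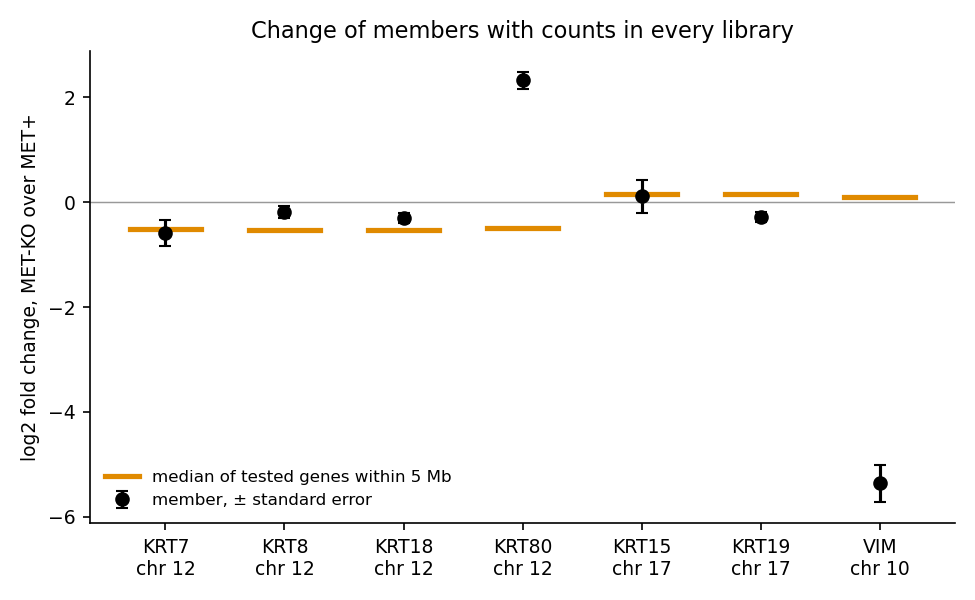
Log2 fold change (MET-KO over MET+) of the 7 members with counts in every library, as points with their standard errors, beside the median log2 fold change of the tested genes within 5 Mb of each (orange lines). KRT7 lies just below the orange line of its chromosome 12 neighbourhood and KRT8 and KRT18 above it, whereas KRT80 at 2.32 and VIM at -5.36 lie far from theirs.

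The composition of the keratin pool was compared as the share of each gene in the counts of all 55 keratin genes of a library. KRT18 made up 68.0% and 64.1% of the pool in MET+ and 61.5% and 63.3% in MET-KO libraries. KRT19 followed with 17.6% and 18.4% in MET+ and 17.5% and 17.0% in MET-KO libraries. For KRT8 the shares were 13.3% and 16.2% in MET+ and 15.8% and 14.4% in MET-KO libraries, which overlapped. The KRT18 and KRT19 shares were lower in both MET-KO libraries than in both MET+ libraries, yet the gap between the nearest libraries was smaller than the distance between the MET+ replicates of KRT18.
Together these 3 keratins held 98.8 ± 0.038% of the pool in MET+ and 94.7 ± 0.078% in MET-KO cells (SD, n = 2 each). The 95% Wilson intervals of the single libraries were 98.7% to 98.9% in MET+ and 94.5% to 94.9% in MET-KO cells. The minor keratins thus took 1.16% and 1.22% of the pool in MET+ and 5.26% and 5.37% in MET-KO libraries. KRT80 contributed 0.092 ± 0.0028% in MET+ and 0.541 ± 0.022% in MET-KO cells (SD, n = 2 each), and KRT7, KRT15, KRT17 and KRT20 each stayed under 0.1% in every library. With 2 libraries against 2, an exact two-sided permutation test cannot go below p = 0.333, and the shares that did not overlap between the groups reached that smallest value.
All keratins together took 0.893% and 0.866% of a library in MET+ and 0.839% and 0.777% in MET-KO cells, or 9102 ± 31.1 against 7813 ± 720 CPM (SD, n = 2 each). The ratio of type II to type I counts was 0.158 and 0.200 in MET+ and 0.203 and 0.183 in MET-KO libraries, and the groups overlapped. Per KRT8 count there were 5.13 and 3.95 KRT18 counts in MET+ and 3.90 and 4.41 in MET-KO libraries, values that also overlapped.

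The rest of the keratin family was compared next. Of 23 other type I keratins, 10 were tested, with 8 called higher and 2 lower after MET loss. Of 23 other type II keratins 4 were tested, with 3 called higher and 1 lower. Among all tested genes 27.2% were called higher and 26.9% lower. KRT14, KRT31, KRT33B, KRT36, KRT37 and KRT38 entered the test only through their MET-KO libraries and had to be higher. KRT34 and KRT81 had too few counts in 1 MET+ library to enter through that group. KRT16 and KRT6A entered only through their MET+ libraries and had to be lower. Of the 55 keratins, 21 had 0 counts in all 4 libraries. At least 10 counts in a library were found for 14 keratins in MET+ and for 23 in MET-KO cells. There were 7 keratins with counts in both MET-KO and in neither MET+ library, and 0 with the reverse pattern. Over all genes, 18161 and 17849 had a count in the MET+ and 18998 and 19722 in the MET-KO libraries. The shares of all genes with these patterns were not computed, so these counts do not set keratins apart from other genes.
KRT31, a type I keratin of the hair shaft, went from 0 counts in each MET+ library to 1344 and 1245 counts without MET. Next to KRT18, KRT19 and KRT8 it was the most abundant keratin of the MET-KO cells, at 123.0 ± 12.1 CPM (SD, n = 2) and at least 368-fold above the 3-count limit of the MET+ libraries (adjusted p = 1.96e-25). Of its end windows 1.11% recurred in KRT33B, while 6.21% of those of KRT37 recurred in KRT38.
KRT34, a further hair keratin of the same cluster, went from 7 and 13 to 531 and 539 counts, a log2 fold change of 5.50 (SE 0.22 and adjusted p = 1.13e-20). KRT36 (1 and 1 against 73 and 66 counts), KRT37 (0 and 0 against 20 and 28), KRT38 (0 and 0 against 56 and 38) and KRT33B (1 and 0 against 15 and 16) were also called higher. Of the type II hair keratins, KRT81 was called higher, from 12 and 4 to 98 and 83 counts, and KRT86 was too low for the test. The 17 hair keratins summed to 2.97 to 3.38 CPM in MET+ and 188.2 to 210.7 CPM in MET-KO libraries. In the MET-KO libraries this sum was uneven, with 2046 and 1939 type I counts against 107 and 108 type II counts.
KRT13 and KRT4, the pair of non-cornified stratified epithelium, both rose. KRT13 went from 13 and 17 to 855 and 824 counts, a log2 fold change of 5.57 (SE 0.19 and adjusted p = 3.93e-23). KRT4 had 24 and 23 counts against 211 and 192, a log2 fold change of 2.87 (SE 0.24 and adjusted p = 4.36e-12). KRT5, of the basal layer, rose as well, from 14 and 14 to 94 and 66 counts, and its basal partner KRT14 from 6 and 7 to 26 and 23 counts.
The keratins that fell were KRT6A, KRT16 and KRT10. KRT6A, a keratin of wounded and fast-growing epithelium, went from 106 and 163 to 10 and 3 counts, a log2 fold change of -4.56 (SE 0.36 and adjusted p = 1.1e-12), having entered the test only through its MET+ libraries. Its partner KRT16 went from 20 and 30 to 8 and 4 counts, and 15.7% of the end windows of KRT16 and 17.7% of those of KRT14 recurred in other keratin genes or pseudogenes. KRT10, the most abundant minor keratin of MET+ cells, fell from 58.8 ± 1.93 to 45.7 ± 3.30 CPM (SD, n = 2 each, log2 fold change -0.36, adjusted p = 0.00663). Of 10 markers of squamous epithelium, 5 were tested, against the shares of all tested genes given above. Of these, 3 were called higher (KRT5, KRT14 and S100A2) and 2 lower (KRT6A and the desmosomal cadherin DSG3, both tested only through their MET+ libraries). SPRR1B and CALML3 had 0 counts and TP63 at most 1 count in a library.

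**Figure D3:**
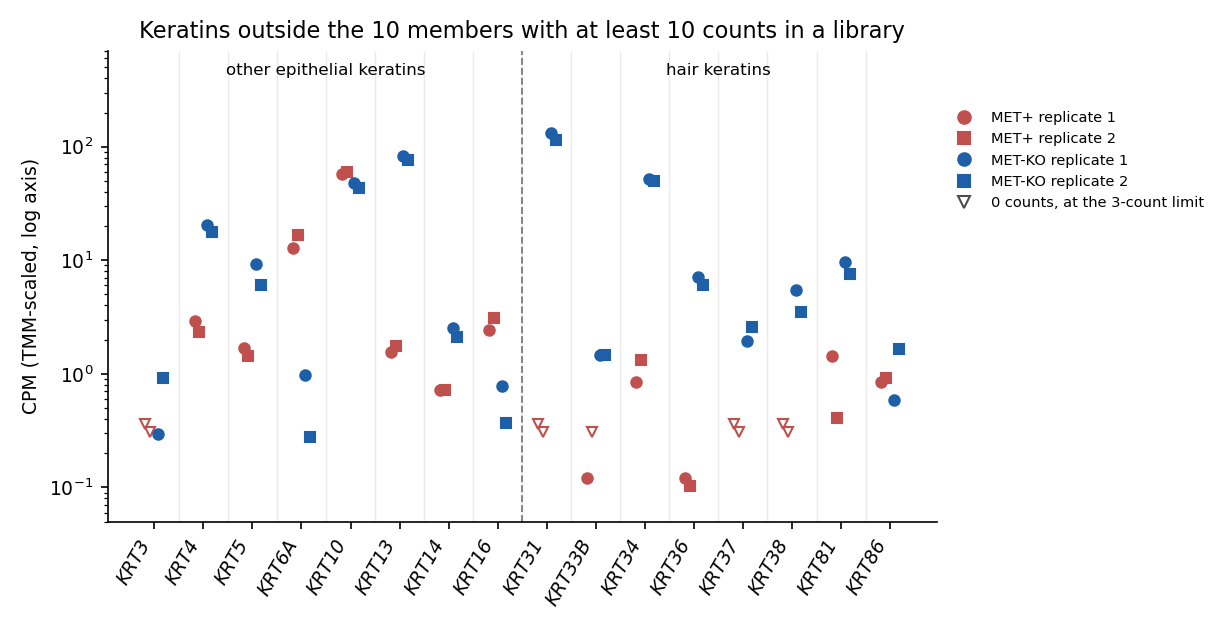
Level of the keratins outside the 10 members that reached at least 10 counts in a library, in CPM scaled by TMM on a log axis, with symbols as for the members and open triangles for 0 counts. KRT31 goes from 0 counts to above 100 CPM, KRT13 and KRT34 from near 1 CPM to about 50 CPM and more, and KRT6A falls from 12.8 and 16.7 CPM to below 1 CPM.

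Of 13 other cytoplasmic intermediate filament genes, among them DES, GFAP, NES and the neurofilament genes, 3 were tested. PRPH, the type III gene of peripheral neurons, was called lower, from 32 and 67 to 33 and 29 counts, whereas BFSP1 and IFFO2 did not pass the test. DES had at most 1 count and NES at most 9 counts in a library, and GFAP was at 0 in all 4.
A list of 19 genes drawn up as filament linkers and organisers was compared, of which 16 were tested, 6 called higher and 5 lower. Their median log2 fold change was 0.14. Among all tested genes 27.2% were called higher and 26.9% lower, so these calls do not set the list apart. DSP, which ties keratins to desmosomes, fell from 209.7 ± 4.25 to 115.9 ± 5.99 CPM (SD, n = 2 each, log2 fold change -0.85, adjusted p = 1.62e-09). The envelope plakin EVPL fell as well, with a log2 fold change of -1.93, and its partner PPL rose by 1.30. EPPK1 was also called higher, from 1 and 0 to 34 and 43 counts, having entered the test only through its MET-KO libraries. PLEC, the linker of keratin and vimentin filaments to other structures, rose from 88.0 ± 13.6 to 133.8 ± 2.98 CPM (SD, n = 2 each, log2 fold change 0.60, adjusted p = 8.55e-06). DST and DNAJB6, a chaperone that binds KRT18, rose by 0.49 and 0.58 on the log2 scale, DNAJB6 lying on chromosome 7, whose tested genes had a median of 0.50. The desmosomal plakophilin PKP3 and PNN fell, at -0.79 and -0.56. MNS1 fell by 1.03 and AGFG1 rose by 0.33 on the same scale. The sources used here give neither of these 2 a role in keratin or vimentin filaments, though both count among the calls of the list. FAM83H and TCHP, which organise keratin bundles, did not pass the test, with values of 0.09 and -0.03.

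Genes with the closest profile over the 4 libraries were sought for the members with the largest rise and fall among those of sufficient level. For KRT80 they were ADARB1, CCDC3 and EPDR1, at Euclidean distances of 0.061, 0.114 and 0.120 between centred log2 CPM profiles. Those of VIM were PLA2G16, NRN1 and TSPAN8, at distances of 0.366, 0.400 and 0.414. The search covered 9547 genes, and with 2 groups of 2 libraries such likeness mostly restates that the log2 fold changes are similar (2.31 to 2.38 for the first 3, -5.19 to -4.71 for the others).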

How the data were processed

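Total RNA of LoVo MET+ and MET-KO cells (2 biological replicates each) was sequenced from QuantSeq 3' libraries. The authors deposited raw read counts per gene, without normalization, for 58825 Ensembl genes and 99 spike-in sequences, which had 0 counts. Per the labels, the tools included cutadapt 1.16, STAR 2.5.4a, featureCounts 1.6.2 and DESeq2 1.18.1 on GRCh38, while the annotation, strand setting and handling of multi-mapping reads are not given in the sources used here. Names and positions were taken from GENCODE version 29, which held 58552 of these IDs.

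Counts were tested in R 4.3.3 by the quasi-likelihood method of edgeR 4.0.16 (filterByExpr, TMM, group as the only term), Benjamini-Hochberg adjusted over all tested genes at a threshold of 0.05. Standard errors were derived from the log2 fold change and its F statistic. Of 23153 genes with a count, 13801 were tested. CPM use TMM-scaled totals. Groups were read from the sample titles, and the scripts were tested on simulated data. p-values measure the spread between replicate cultures as deposited, and replicates differed beyond counting noise (chi-square per degree of freedom 5.45 and 4.86). Alternatives covered scaling, DESeq2 1.42.0, filters, the replicate block, depth, single replicates and pseudogenes.

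Genes were named by rule: the 10 members, MET, keratins with at least 100 counts in a library, and up to 5 called genes in each direction per list whose average log2 CPM reached 3. For the called members with the largest rise and fall at that level, the 3 genes of closest centred profile were added. Keratins below that limit, the markers and other genes beside these were named after their values were seen, and so was the grouping as hair keratins. Members and lists were chosen with earlier results of these data known. The result of 1 marker gene is not reported here. Figures were drawn with matplotlib 3.10.9.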

Additional observations from a re-analysis of the deposited data

How the results depend on the processing

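Of 266 values recomputed under alternatives for the members, lists, shares and regional medians, 246 were labelled unchanged. Fold changes were so labelled when they kept their direction and side of the threshold. Shares, ratios and regional medians were so labelled when they moved by less than the replicate spread. With 2 libraries, leaving out either always moves a share or ratio by less than this spread. Those labels were fixed in advance, although they count among the 246. Counts of called genes only had to stay within a fold limit, which 2666 genes called higher with DESeq2, against 3755, still met. Requiring 10 counts in every library left 6 members for the test, with 1 called higher, and 7 other intermediate filament genes, with 3 called higher and 2 lower, since genes at or near 0 in 1 group drop out by construction. The lower calls among the other intermediate filament genes also came to 2 with scaling by the library total alone and with DESeq2, for which the cause was not tested. Leaving out each replicate in turn gave 3 members called higher throughout and 1 to 4 called lower, the 1 being without MET+ replicate 2, and gave 10 to 11 of the other intermediate filament genes called higher and 2 to 4 called lower, the 2 being without MET-KO replicate 2. A lone sample was then assumed to vary like the other group. KRT15 ranged from -0.12 to 0.32 when single replicates were left out, reversed without MET-KO replicate 2. Scaling by the library total alone raised the median log2 fold change of all genes to 0.11, and KRT18 and KRT19 were then at -0.21 and -0.19, still called lower. The regional medians moved to -0.58 around KRT8 and to 0.52 around KRT19 in windows of 1 Mb. With the replicate block, 3 members were called higher and 3 lower, and 3544 and 3511 genes in all against 3755 and 3712 without it. Same-numbered libraries did not deviate together (correlation -0.02), so the numbers were not taken as pairs. Counts under about 10 limit VIM in MET-KO cells and KRT17 and KRT20 in MET+ cells.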
